A study of Mus musculus with 12 samples.

Results

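The genes followed here are Meis1, Pbx2, Pbx3 and Pknox1, 4 genes for partners of HOX proteins, chosen by symbol with earlier results of these data known. They are 4 of 37574 mouse genes with counts built from the deposited exons, and 4 of 4 passed the filter on low counts that left 15706 genes for testing. Their RNA was measured in 12 RNA-seq libraries in 4 groups of 3. Haematopoietic stem cells (HSC) were sorted as Lin-Sca1+ckit+CD48-CD150+ cells, and granulocyte-macrophage precursors (preGM) as Lin-Sca1-ckit+ cells negative for CD150, CD105, CD41 and CD16/32. Each population came from wild-type mice (strain label C57bl/6 WT, here WT) or from the strain labelled Col1a1-MLL/ENL (here MLL-ENL), named for the Col1a1 locus and the leukaemia fusion of MLL with ENL. Before RNA extraction all 4 groups, the WT cells too, spent 48 h in OptiMEM with 10% serum and 1 µg/ml doxycycline, with the cytokines SCF (10 to 50 ng/ml), G-CSF and IL3 (each at 5 ng/ml). Since every MLL-ENL library had doxycycline, the fusion and other differences between the strains cannot be told apart. The promoter of the transgene, the age of the mice and the number of mice behind a library are not given in the sources used here.

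HOX proteins bind DNA weakly and with little selectivity on their own, and gain both by pairing with homeodomain proteins of the TALE class. PBX proteins contact HOX proteins directly. MEIS1 and PKNOX1, also called PREP1, bind PBX proteins and influence their entry into the nucleus. MEIS1 is needed for the maintenance of stem cells, and MEIS1 and PBX3 are known as partners of HOXA9 in leukaemias with MLL fusions, while PREP1 competes with MEIS1 for PBX.

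The TALE class is named for a loop inserted into the homeodomain, whose proline, tyrosine and proline residues form part of the pocket that holds the HOX protein. The stretch of the reference exon around the codons of this loop is shown for each gene. The loop is the feature that makes these 4 genes a class, and the counts of the whole counted exon are given further on. The stretch covers 60 of 77 exon bases for Meis1, and 105 of 136 for Pbx2 and for Pbx3. For Pknox1 it covers 60 bases of a counted exon of 125, which belongs to the retained-intron transcript Pknox1-204 and has 77 coding bases. The letters are coding strand, 5′ to 3′, on GRCm38, and capitals mark the codons for proline, tyrosine and proline. Meis1 lies on the minus strand at chr11:18905706-18905765 (exon 10 of those counted), Pbx2 on the plus strand at chr17:34594607-34594711 (exon 6), Pbx3 on the minus strand at chr2:34204786-34204890 (exon 8) and Pknox1 on the plus strand at chr17:31602786-31602845 (exon 11).
Meis1: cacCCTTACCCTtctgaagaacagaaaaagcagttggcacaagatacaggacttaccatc
Pknox1: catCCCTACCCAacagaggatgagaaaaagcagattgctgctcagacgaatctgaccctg
Pbx2: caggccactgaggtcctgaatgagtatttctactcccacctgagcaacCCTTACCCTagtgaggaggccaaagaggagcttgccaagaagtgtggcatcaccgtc
Pbx3: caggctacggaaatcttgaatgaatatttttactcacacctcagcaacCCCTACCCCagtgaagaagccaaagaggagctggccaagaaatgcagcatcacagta
Over the 60 bases that start 3 bases before the first proline codon, Pbx2 and Pbx3 shared 50 bases (83.3%). Meis1 and Pknox1 shared 37 (61.7%), Meis1 and Pbx2 36, Meis1 and Pbx3 34 (56.7%), Pbx2 and Pknox1 33 (55.0%), and Pbx3 and Pknox1 31 (51.7%).

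Meis1 (ENSMUSG00000020160; GRCm38 chromosome 11, 18879817 to 19018985, minus strand) was counted over 13 exons with 9462 bases, and Pbx3 (ENSMUSG00000038718; chromosome 2, 34171457 to 34373142, minus strand) over 12 exons with 6252 bases. Pbx2 (ENSMUSG00000034673; chromosome 17, 34591266 to 34597400, plus strand) had 10 exons with 3640 bases, and Pknox1 (ENSMUSG00000006705; chromosome 17, 31564734 to 31607693, plus strand) 13 exons with 6888 bases. Levels are counts per 1000000 gene counts (CPM) with TMM scaling, as mean ± SD with n = 3 libraries. A change is a log2 fold change ± SE from the edgeR quasi-likelihood fit of all genes and all 12 libraries, and a gene is said to have changed where the p adjusted over all tested genes was under 0.05. The labels do not say whether the 3 libraries of a group came from separate animals or cultures, and a p-value here reflects library-to-library spread, which may be technical.

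Total gene counts ran from 14529282 to 18157703 for WT HSC, from 18980308 to 23453049 for MLL-ENL HSC, from 34741282 to 44492809 for WT preGM and from 38465777 to 50325667 for MLL-ENL preGM. MLL-ENL preGM replicate 1 lay at -75.1 on the second principal component against -23.9 and -25.8 for the other libraries of its group, and WT preGM replicate 2 at 59.9 against 10.9 and 5.53. Markers of the sorted populations were present: the 9 stem cell markers summed to 578 to 655 CPM (WT) and 804 to 894 CPM (MLL-ENL) in HSC, and to 62.1 to 80.6 CPM (WT) and 62.8 to 135 CPM (MLL-ENL) in preGM. The 7 myeloid precursor markers summed to 291 to 429, 238 to 273, 27080 to 29903 and 12678 to 16147 CPM in the same order. Lymphoid markers summed to at most 5.49 CPM in any library, with Cd3e at 0 counts in all 12. In bulk RNA, fewer cells of a type and less RNA per cell cannot be told apart.

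In HSC, the question was whether the cofactor genes differ with MLL-ENL. Pbx3, the PBX gene most often tied to MLL-rearranged leukaemia, was 4.25-fold higher in MLL-ENL HSC. The other PBX gene, Pbx2, and both genes for PBX-binding partners, Meis1 and Pknox1, did not pass the test. So 1 of the 4 genes changed, where 4.13% of all tested genes did.

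Pbx3 had 8.55, 8.33 and 6.15 CPM in WT HSC and 30.4, 29.97 and 37.6 CPM in MLL-ENL HSC. Every MLL-ENL library lay far above every WT library. The log2 change was 2.09 ± 0.26 (adjusted p = 0.000348), and the call was kept in 24 of 25 alternative analyses, including each of the 12 that left out 1 library. It was lost when each gene was represented by its longest transcript (3.17, adjusted p = 0.122), because the longest Pbx3 transcript is a retained-intron form, Pbx3-208, with a mean of 0.05 CPM in the WT group and 0.49 CPM in the MLL-ENL group.

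Meis1 had 136, 140 and 134 CPM in WT HSC and 216, 202 and 206 CPM in MLL-ENL HSC. The lowest MLL-ENL library lay above the highest WT library, and the spread within each group was small (137 ± 2.67 and 208 ± 7.16 CPM). Yet the change of 0.60 ± 0.36 (1.52-fold; 95% interval -0.15 to 1.36) did not pass in the fit of all libraries (adjusted p = 0.390). That fit uses 1 dispersion per gene, into which the wide spread of Meis1 in MLL-ENL preGM enters. Leaving out replicate 1 of MLL-ENL preGM brought it past the threshold (0.61, adjusted p = 0.0234), as did a fit of the HSC groups alone (0.62, adjusted p = 0.000832) and a fit without both libraries that stood apart (0.60, adjusted p = 0.000439). Calls over all tested genes rose in these fits too, in the same order to 1283 of 15962, 2507 of 14185 and 3369 of 15811. The main fit called 648 of 15706. With the remaining 22 alternatives Meis1 was not called, and its adjusted p ranged from 0.000439 to 0.574 over all 25.

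Pbx2 had 22.7, 15.9 and 18.6 CPM in WT HSC and 26.0, 23.6 and 23.1 CPM in MLL-ENL HSC. On all counted exons the groups did not overlap, but the nearest libraries differed by less than the spread within WT. The change of 0.35 ± 0.24 did not pass (adjusted p = 0.467), in the fit of all libraries or in any of the 25 alternatives. Without exon 1, which lies inside an exon of the gene Gpsm3, the groups overlapped. Pbx2 then had 15.4, 9.83 and 11.4 CPM in WT HSC and 17.2, 12.5 and 14.4 CPM in MLL-ENL HSC. Pknox1 had 17.4, 19.8 and 22.8 CPM without the fusion and 21.2, 23.2 and 18.5 CPM with it, and the groups overlapped. Its difference of 0.07 ± 0.28 (adjusted p = 0.926) changed sign when single libraries were left out.

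Marker levels and the position of counts along genes differed with the genotype as well. The 7 megakaryocyte and erythroid markers summed to 570 to 712 CPM (WT) and 99.4 to 146 CPM (MLL-ENL) in HSC, with counts for 6 of 7 markers in all 3 WT libraries and 7 of 7 in the MLL-ENL libraries. The median share of a gene's counts in its last exon was 62.1 to 65.7% for the WT libraries and 57.6 to 61.2% for the MLL-ENL libraries. Their part in the difference of Pbx3 was not tested.

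**Figure D1:**
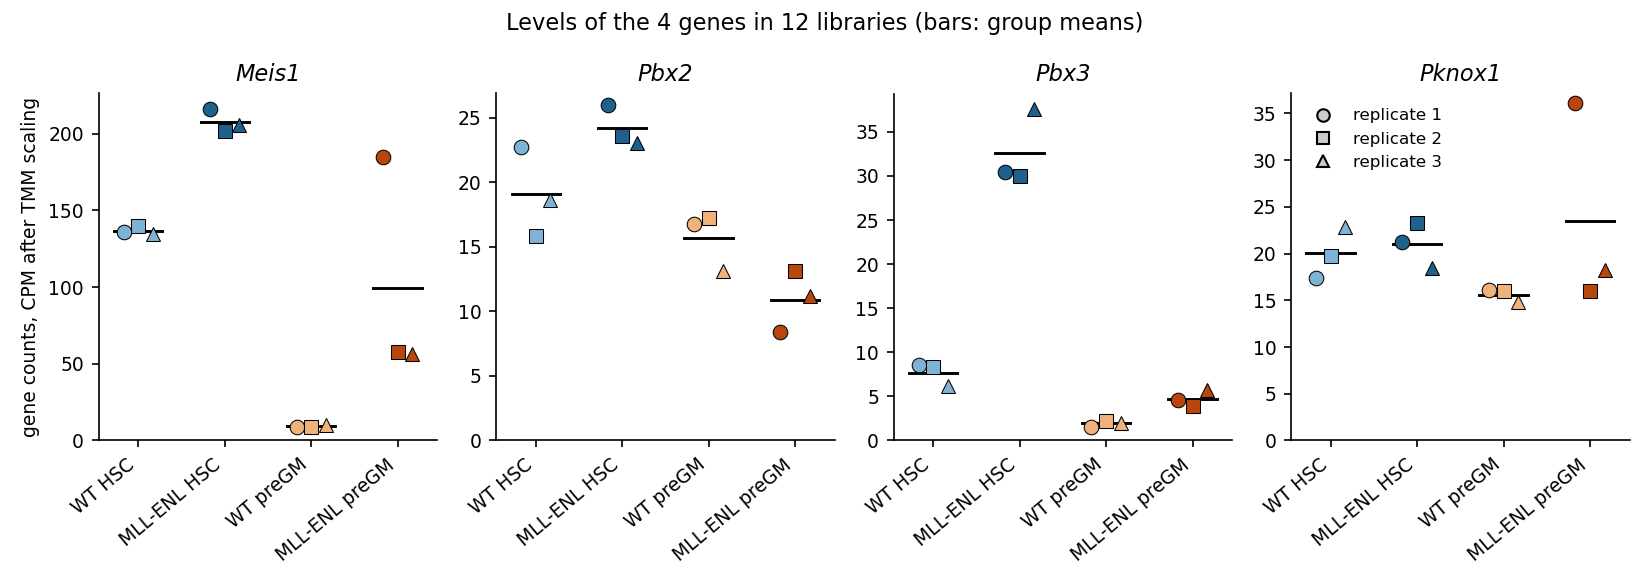
Level of each gene in the 12 libraries, in CPM with TMM scaling on a linear axis, by group. Symbols mark the replicate number, as they do in the plot of exon levels, and lines mark group means. For Pbx3 the WT HSC libraries (6.15 to 8.55 CPM) lie below the MLL-ENL HSC libraries (29.97 to 37.6 CPM), and for Meis1 the WT preGM libraries (8.94 to 10.2 CPM) lie below the MLL-ENL preGM libraries (56.1 to 185 CPM).

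The same question was asked of preGM. With MLL-ENL, Meis1 RNA was 10.6-fold higher and Pbx3 RNA 2.45-fold higher, while Pbx2 and Pknox1 did not pass. Of the 4 genes, 2 changed, both upwards, where 6.77% of all tested genes changed in either direction.

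Meis1 had 9.05, 8.94 and 10.2 CPM in WT preGM and 185, 57.6 and 56.1 CPM in MLL-ENL preGM. Each MLL-ENL library was more than 5 times as high as any WT library, and replicate 1 of MLL-ENL preGM was more than 3 times as high as the other libraries of its group. The log2 change was 3.40 ± 0.39 (adjusted p = 6.55e-05). Without that replicate it was 2.60 (adjusted p = 8.76e-07), and it passed in all 25 alternatives, with values from 2.41 to 4.34.

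Replicate 1 of MLL-ENL preGM differed from replicates 2 and 3 in other measures too. Its 9 stem cell markers summed to 135 CPM, against 62.8 and 67.6. Its 6 stromal and endothelial markers summed to 112 CPM, against 34.9 and 39.2, of which the endothelial adhesion gene Pecam1, which stem cells express too, held 110 CPM. Across the 4 groups in order, WT HSC, MLL-ENL HSC, WT preGM and MLL-ENL preGM, that list summed to 16.1 to 18.4, 30.1 to 32.6, 31.3 to 33.9 and 34.9 to 112 CPM, with Col3a1 at 0 counts in every preGM library and Cdh5 at 0 in WT preGM. The part of these differences in the Meis1 level of replicate 1 was not tested.

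Pbx3 had 1.58, 2.23 and 2.02 CPM in WT preGM, from 53, 48 and 71 counts, and 4.57, 3.96 and 5.74 CPM in MLL-ENL preGM, from 243, 122 and 208 counts. The groups did not overlap, and replicate 1 of MLL-ENL preGM lay between the other libraries. The change of 1.29 ± 0.26 passed (adjusted p = 0.00605) and was kept in 22 of 25 alternatives. It was lost with limma on log2(RPKM + 1), a scale that compresses low genes (0.46, adjusted p = 0.125), with the longest transcript (1.79, adjusted p = 0.382), and with the exons before the last exon alone (1.72, adjusted p = 0.110).

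Pbx2 had 16.7, 17.2 and 13.1 CPM in WT preGM and 8.37, 13.2 and 11.2 CPM in MLL-ENL preGM. The groups overlapped, since the highest MLL-ENL library exceeded the lowest WT library. The change of -0.53 ± 0.24 did not pass after adjustment (unadjusted edgeR p = 0.0424, adjusted p = 0.197; an exact permutation test of 3 against 3 cannot go below 0.1). Pknox1 had 16.1, 16.0 and 14.8 CPM in WT and 36.1, 16.0 and 18.3 CPM in MLL-ENL preGM. Its difference rested on replicate 1: the change was 0.59 ± 0.28 (adjusted p = 0.216) with that library and 0.13 (adjusted p = 0.774) without it.

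The MLL-ENL preGM libraries also held fewer granulocyte transcripts. The 6 granulocyte markers, all with counts in every library, summed to 3576 to 5643 CPM (WT) and 17.6 to 44.8 CPM (MLL-ENL) in preGM, against 7.49 to 12.2 and 9.12 to 9.47 CPM in WT and MLL-ENL HSC. The 7 mast cell, basophil and eosinophil markers summed to 1434 to 2248 CPM (WT) and 190 to 286 CPM (MLL-ENL) in preGM. In HSC they summed to 6.97 to 9.67 CPM (WT) and 3.62 to 12.3 CPM (MLL-ENL), with Epx at 0 in MLL-ENL HSC. The part of these shifts in the changes of Meis1 and Pbx3 was not tested.

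**Figure D2:**
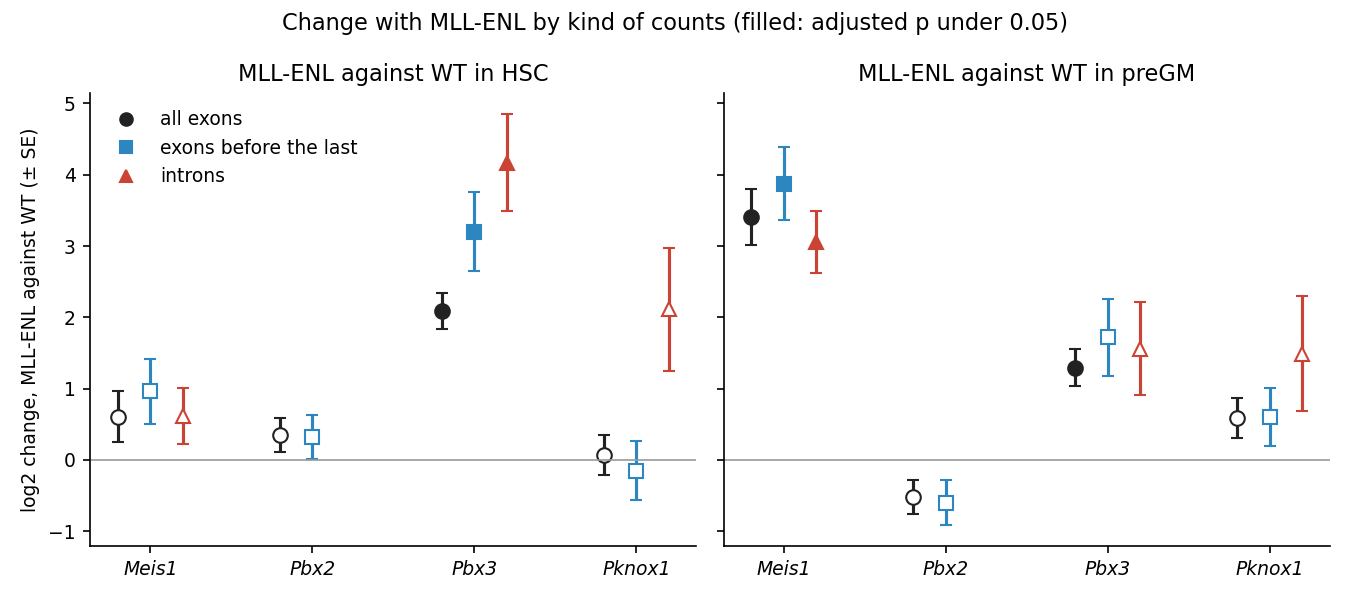
Log2 change of each gene with MLL-ENL in HSC and in preGM, from all exons, from the exons before the last and from introns. Points are estimates from the edgeR fits of all libraries, bars are ± 1 SE and filled points have an adjusted p under 0.05. Pbx2 has no intron point. On all exons, Meis1 is at 3.40 in preGM and 0.60 in HSC, and Pbx3 at 1.29 in preGM and 2.09 in HSC.

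Whether the response to MLL-ENL differs between the cell types was tested directly, as the preGM change minus the HSC change. Meis1 responded more in preGM, by 2.80 ± 0.52 on the log2 scale (adjusted p = 0.00617). It was the 1 of the 4 genes that passed, where 3.13% of all tested genes did. The difference was 1.99 without MLL-ENL preGM replicate 1 (adjusted p = 0.00028) and was lost with limma on log2(RPKM + 1) alone among 24 alternatives (1.65, adjusted p = 0.139). Pbx3 leaned the other way at -0.79 ± 0.36 (adjusted p = 0.287), which passed with limma on log2(RPKM + 1) alone (-1.25, adjusted p = 0.00505), a scale on which the same fold change is smaller in preGM, where Pbx3 is low. The differences of Pbx2 (-0.87 ± 0.34, adjusted p = 0.196) and Pknox1 (0.52 ± 0.39, adjusted p = 0.565) did not pass.

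Between the cell types, Meis1 and Pbx3 RNA was lower in preGM than in HSC, and the size of the gap depended on the genotype for Meis1. In WT, 2 of the 4 genes differed, both lower in preGM, where 38.5% of all tested genes differed. Meis1 was 14.5-fold lower (137 ± 2.67 against 9.40 ± 0.708 CPM; log2 change -3.86 ± 0.40, adjusted p = 2.22e-06). Pbx3 was 3.96-fold lower (7.68 ± 1.33 against 1.95 ± 0.332 CPM; -1.99 ± 0.27, adjusted p = 3.10e-05), which was lost with the longest transcript (-1.10, adjusted p = 0.565) and with the exons before the last exon (-0.79, adjusted p = 0.337). Pbx2 (-0.28 ± 0.24, adjusted p = 0.374) and Pknox1 (-0.36 ± 0.28, adjusted p = 0.335) did not pass, although the Pknox1 groups did not overlap. Both passed with library size as the only scaling (-0.99 and -1.06, adjusted p = 0.00224 and 0.0237), a scaling under which the median of all genes was itself -0.73.

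With MLL-ENL, 3 of the 4 genes were lower in preGM than in HSC, where 41.5% of all tested genes differed. Pbx3 fell from 32.7 ± 4.25 to 4.76 ± 0.902 CPM (-2.78 ± 0.26, adjusted p = 1.13e-06), and Pbx2 from 24.2 ± 1.56 to 10.9 ± 2.40 CPM (-1.15 ± 0.24, adjusted p = 0.0014). Both calls were kept in all 25 alternatives. Meis1 fell from 208 ± 7.16 to 99.5 ± 73.8 CPM (-1.06 ± 0.36, adjusted p = 0.0272). Leaving out any 1 of the 3 MLL-ENL HSC libraries ended its call (adjusted p = 0.0597 to 0.0710), as did leaving out replicate 2 (0.110) or 3 (0.121) of MLL-ENL preGM. It was also lost with the longest transcript (-0.15, adjusted p = 0.842), with only the groups compared (adjusted p = 0.0747), without exons shared with other genes (adjusted p = 0.0518) and on the exons before the last (adjusted p = 0.0672), and was kept in 16 of 25 alternatives. Without MLL-ENL preGM replicate 1 the change was -1.86. Pknox1 did not pass (0.16 ± 0.28, adjusted p = 0.663).

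The diagonal comparisons place the groups in order. MLL-ENL preGM differed from WT HSC in 2 of the 4 genes, where 33.4% of all tested genes differed. Pbx2 was lower (-0.81 ± 0.24, adjusted p = 0.0172; 0.0817 without WT HSC replicate 1), and so was Pbx3 (-0.69 ± 0.25, adjusted p = 0.0457). The Pbx3 call was lost in 9 of 12 analyses that left out 1 library, with adjusted p up to 0.147. The call was kept without replicate 3 of WT HSC, replicate 2 of WT preGM or replicate 3 of MLL-ENL preGM. Meis1 in MLL-ENL preGM did not differ detectably from WT HSC (-0.46 ± 0.36, adjusted p = 0.343), and was lower than WT HSC without replicate 1 (-1.26, adjusted p = 0.000132).

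WT preGM differed from MLL-ENL HSC in 3 of the 4 genes, all lower, where 48.7% of all tested genes differed. The changes were -4.46 ± 0.41 for Meis1 (adjusted p = 4.78e-07), -4.07 ± 0.28 for Pbx3 (adjusted p = 2.41e-08) and -0.63 ± 0.24 for Pbx2 (adjusted p = 0.0385). Of the 12 analyses that left out 1 library, 7 ended the Pbx2 call, with adjusted p from 0.0520 to 0.153. The libraries were the 3 of MLL-ENL HSC, replicate 3 of WT HSC and of MLL-ENL preGM, and replicates 1 and 3 of WT preGM. Pknox1 was at -0.43 ± 0.28 (adjusted p = 0.216), and passed with library size alone (-1.32), both limma fits (-1.27 and -0.94) and only the groups compared (-0.48, adjusted p = 0.0367). The median of all genes was itself -0.97 with library size alone, and -0.88 and -0.52 with the limma fits.

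The order of mean levels was thus MLL-ENL HSC, WT HSC, MLL-ENL preGM and WT preGM for both Meis1 and Pbx3. For Meis1, the middle pair overlapped and the first pair passed only in the fits named above. For Pbx3, every neighbouring pair was separated without overlap, although the test of the middle pair rested on most single libraries. Pbx2 ran from MLL-ENL HSC through WT HSC and WT preGM to MLL-ENL preGM, and none of its neighbouring pairs passed the test. Pknox1 ran from MLL-ENL preGM through MLL-ENL HSC and WT HSC to WT preGM, also with no neighbouring pair past the test.

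Per kilobase of exon, Meis1 had the highest mean of the 4 genes in HSC, with 14.4 CPM per kilobase in WT and 22.0 in MLL-ENL. In WT preGM it fell to 0.994, below Pbx2 at 4.31 and Pknox1 at 2.27, and in MLL-ENL preGM it was again the highest at 10.5. Pbx3 was the lowest in WT HSC (1.23), WT preGM (0.311) and MLL-ENL preGM (0.761), but in MLL-ENL HSC, at 5.22, it exceeded Pknox1 at 3.05 and stood near Pbx2 at 6.65. The Pbx2 values include exon 1, which lies inside an exon of the gene Gpsm3. It held 33.6 to 47.0% of the Pbx2 counts in MLL-ENL HSC, so the order of Pbx2 and Pbx3 there is uncertain. In WT HSC, Pbx2 had 5.24 and Pknox1 2.91, and in MLL-ENL preGM Pknox1 had 3.40.

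Counts along the genes showed where this signal came from. Most Pbx3 counts lay in the last exon, which held 94.0 to 96.7% (WT) and 87.0 to 91.2% (MLL-ENL) of its counts in HSC, and 85.9 to 87.5% (WT) and 74.9 to 84.4% (MLL-ENL) in preGM. This exon, at 34171457 to 34172973, had 8.27, 7.93 and 5.78 CPM in WT HSC and 27.1, 26.1 and 34.3 CPM in MLL-ENL HSC, so the groups were as far apart on it as on the whole gene. For comparison, the median gene had 45.8 to 65.7% of its counts in the last exon. The share for Meis1 was 54.2 to 70.7% in every library but MLL-ENL preGM replicate 1, where it was 38.7%. The share in that library was the lowest of the 12 for the median gene too, at 45.8%.

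The exons before the last were tested on their own for all genes with enough counts there. Pbx3 had 5, 9 and 6 such counts in WT HSC and 107, 98 and 93 in MLL-ENL HSC, and these groups were far apart. The change on them was 3.20 ± 0.56 (adjusted p = 0.00764), and Pbx3 was the 1 of the 4 genes called, where 1.87% of tested genes were. In preGM, Meis1 was called on these exons (3.87 ± 0.51, adjusted p = 0.00029) and the other 3 genes were not, where 2.67% of tested genes were. The preGM minus HSC difference of Meis1 passed as well (2.91 ± 0.66, adjusted p = 0.0386), 1 of 4 where 1.19% of tested genes did.

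The exon that codes for the TALE loop had few counts. For Meis1 there were 31, 88 and 20 in WT HSC, 97, 78 and 117 in MLL-ENL HSC, 4, 6 and 1 in WT preGM, and 404, 35 and 44 in MLL-ENL preGM. Replicate 1 of MLL-ENL preGM lay far above the rest. In CPM the exon averaged 3.44 ± 0.607 in MLL-ENL HSC, 3.32 ± 3.71 in MLL-ENL preGM, 2.32 ± 1.47 in WT HSC and 0.142 ± 0.127 in WT preGM, so the middle groups stood in the other order than on the whole gene, and they overlapped. For Pbx3 there were 0, 0 and 1 in WT HSC, 15, 20 and 5 in MLL-ENL HSC, 1, 1 and 1 in WT preGM, and 12, 1 and 2 in MLL-ENL preGM, so the loop exon was covered mainly in MLL-ENL HSC. The loop exon of Pbx2 had 3 to 18 counts and that of Pknox1 3 to 66 counts in a library. The Pknox1 exon as counted is that of the retained-intron transcript Pknox1-204, with 77 coding bases of 125, so its counts include non-coding bases.

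**Figure D3:**
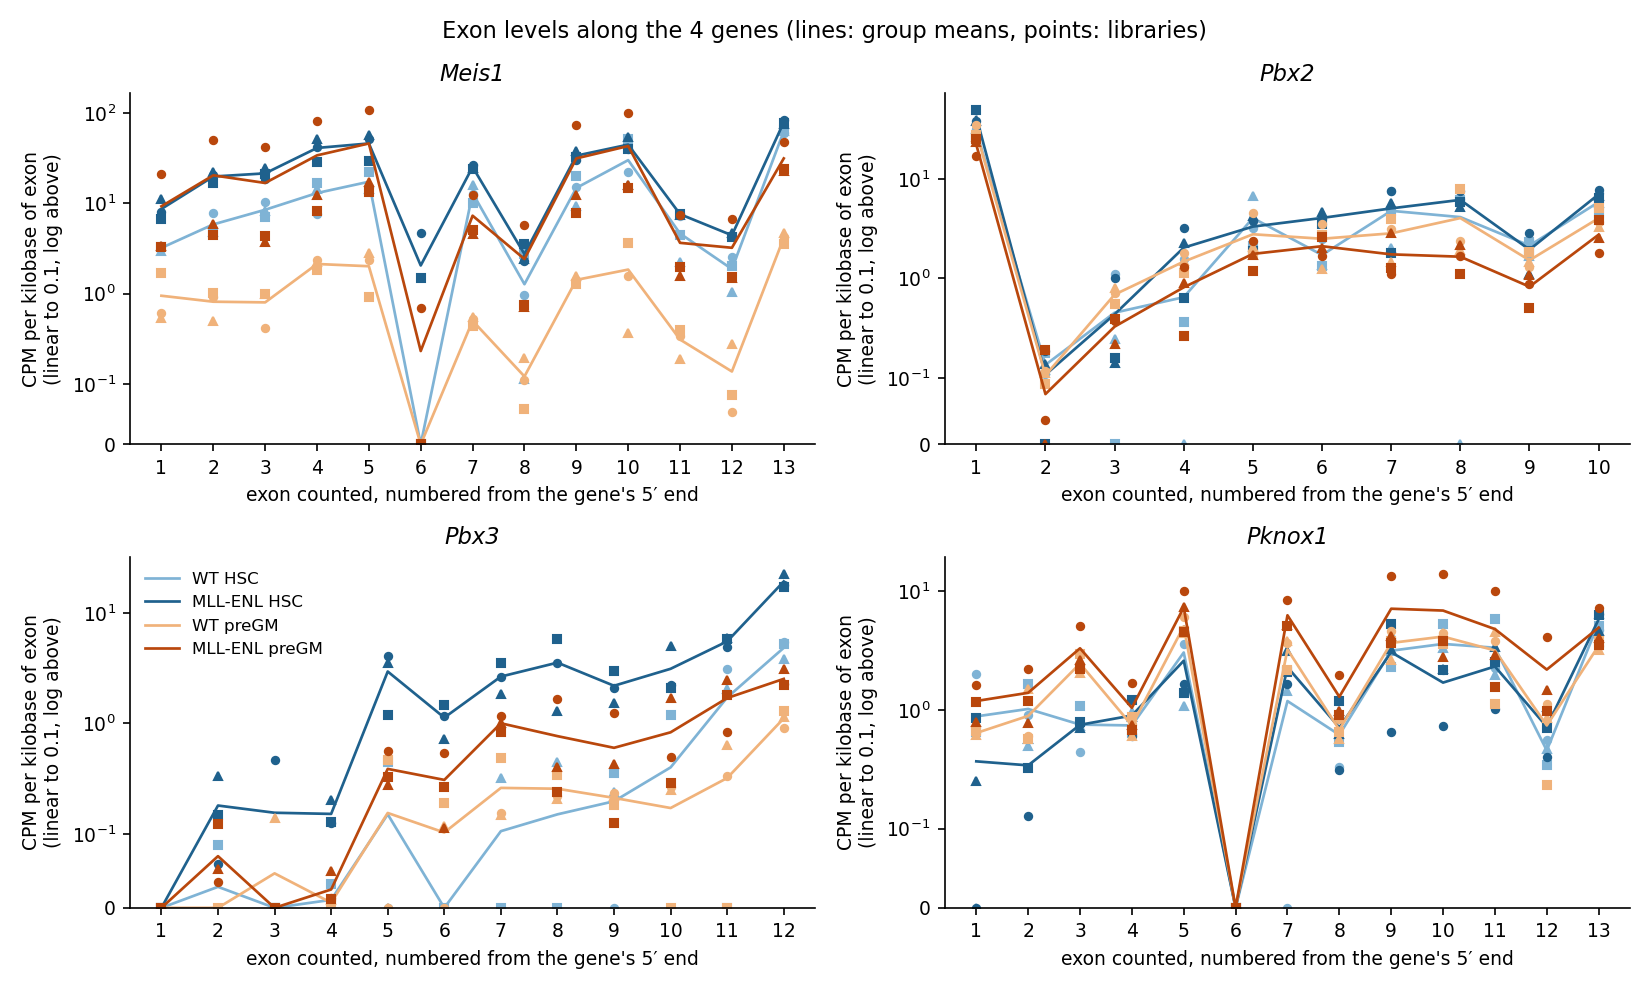
Level of each counted exon along the 4 genes in CPM per kilobase of exon, on an axis that is linear to 0.1 and logarithmic above it. Points are libraries (circle, square and triangle for replicates 1, 2 and 3) and lines are group means. Pbx3 rises towards its last exon, number 12, and the MLL-ENL HSC line runs above the others along most of the gene.

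Some exons are not specific to 1 gene. The sources used here do not say how strand was handled, so reads of an antisense gene may be counted too. Exon 1 of Pbx2 (34591266 to 34591492), the non-coding start of transcript Pbx2-203, lies whole, over 227 bases, inside an exon of Gpsm3 on the same strand. Its level was 6.02 to 7.26 CPM (WT) and 8.70 to 11.1 CPM (MLL-ENL) in HSC, and 5.92 to 7.91 CPM (WT) and 3.86 to 5.75 CPM (MLL-ENL) in preGM, a large part of the Pbx2 total. Gpsm3 itself ran at 20.7 to 27.3, 35.4 to 42.8, 23.2 to 32.5 and 16.4 to 21.8 CPM. Exon 7 of Meis1 (19009784 to 19011388), from the retained-intron transcript Meis1-205, shares 896 bases with the antisense gene Gm16140, and had 16.1 to 25.9 CPM (WT) and 39.0 to 42.8 CPM (MLL-ENL) in HSC.

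Without these shared exons the calls of Pbx2 were as before, but its WT and MLL-ENL libraries in HSC then overlapped. Pbx2 was lower in MLL-ENL preGM than in MLL-ENL HSC (-1.32, adjusted p = 0.00171) and than in WT HSC (-1.05, adjusted p = 0.00997), and it did not pass in preGM with MLL-ENL (-0.61, adjusted p = 0.204). Meis1 kept its rise in preGM (3.35, adjusted p = 8.12e-05), had 0.53 in HSC (adjusted p = 0.466), and its fall from MLL-ENL HSC to MLL-ENL preGM no longer passed (-0.93, adjusted p = 0.0518).

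**Figure D4:**
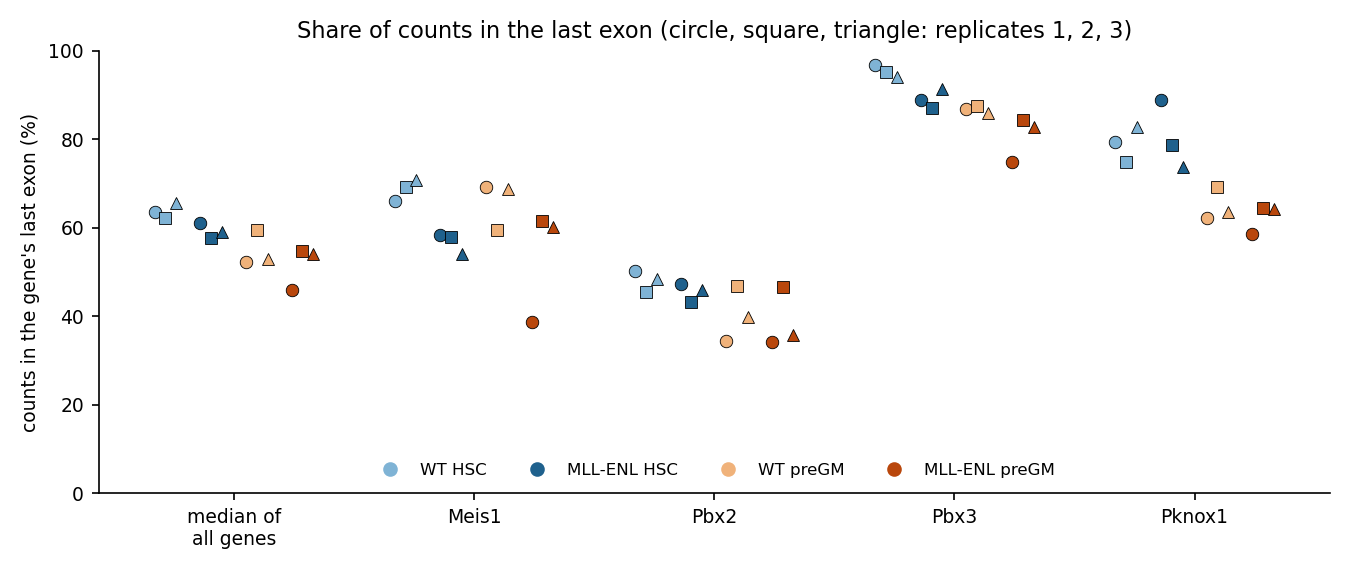
Share of each gene's counts in its last exon, in percent, in the 12 libraries, beside the median over all genes. Pbx3 lies between 74.9 and 96.7% and the median gene between 45.8 and 65.7%, with MLL-ENL preGM replicate 1 lowest for Meis1 (38.7%) and for the median gene.

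The deposited transcript counts share exons, so they describe forms and cannot be added. For Pbx3, the coding transcripts Pbx3-202 and Pbx3-201 moved alike, with means of 7.60 and 5.00 CPM in WT HSC, 31.7 and 19.6 in MLL-ENL HSC, 1.90 and 1.04 in WT preGM, and 4.57 and 3.22 in MLL-ENL preGM. Meis1-201, the Meis1 form with the most counts, had 115, 166, 8.67 and 91.6 CPM in the same groups. Pbx2-201, which does not contain the exon shared with Gpsm3, had 12.2, 14.7, 8.98 and 5.90 CPM.

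Whether exons of a gene changed unequally with MLL-ENL was tested for all 4 genes over 36 exons with enough counts. In HSC, 0 of 4 genes were called by edgeR's exon usage test with Simes p-values, where 0.278% of tested genes were. In preGM it was 0 of 4, where 0.154% were. At an unadjusted p under 0.05 this test counted 0 genes in either cell type, the F form of the test 1 in HSC and 0 in preGM, and limma 0 and 0. Of the 36 exons, 0 were called in HSC (background 0.0458%) and 0 in preGM (background 0.0229%). At an unadjusted p under 0.05 there was 1 exon in HSC, exon 7 of Pbx3 (edgeR adjusted p = 0.916), named here after its value was seen, and 0 in preGM.

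Intron counts, which can come from unspliced RNA, were tested separately over 9606 genes. Pbx3 had 8, 4 and 5 intron counts in WT HSC and 110, 223 and 128 in MLL-ENL HSC, and no library of one group came near the other. Its intron change was 4.17 ± 0.68 (adjusted p = 0.000483), kept in all 17 alternatives. It was the 1 gene called among the 3 with enough intron counts, where 0.947% of tested genes were. Per 100 exon counts, Pbx3 had 4.13 ± 1.70 intron counts in WT and 17.7 ± 10.3 in MLL-ENL HSC. Over all genes the HSC libraries had 3.72 to 4.11 (WT) and 4.81 to 5.97 (MLL-ENL) intron counts per 100 gene counts, and the part of this shift in the Pbx3 value was not tested.

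Meis1 intron levels were 54.0, 65.0 and 49.8 CPM in WT HSC, 87.0, 97.4 and 74.4 in MLL-ENL HSC, 3.11, 2.42 and 1.17 in WT preGM, and 30.6, 12.9 and 12.1 in MLL-ENL preGM. The genotypes did not overlap in either cell type, and the order of groups was that of the exons. In preGM the intron change was 3.06 ± 0.43 (adjusted p = 1.75e-05), 1 of 3 genes where 1.3% of tested genes were called, and 2.49 without MLL-ENL preGM replicate 1. In HSC it was 0.62 ± 0.39 (adjusted p = 0.540). WT preGM lay below WT HSC by -4.66 ± 0.46 (adjusted p = 1.35e-09), the 1 call among the 3 genes in that comparison, where 27.5% of tested genes were called. Intron counts of all tested genes had a median change of -0.80 there, with 2256 of 2644 calls lower, and the libraries had 3.72 to 4.11 intron counts per 100 gene counts in WT HSC and 1.24 to 2.02 in WT preGM. In preGM with MLL-ENL the median over all tested genes was 0.32. Replicates 1, 2 and 3 of MLL-ENL preGM had 3.51, 1.73 and 1.49 intron counts per 100 gene counts. The part of these shifts in the Meis1 values was not tested.

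The preGM minus HSC difference of the Meis1 intron changes was 2.44 ± 0.57 (adjusted p = 0.0484), 1 of 3 genes where 0.281% of tested genes were called. Its call was kept in 6 of 17 alternatives and lost when any library other than those of MLL-ENL preGM was left out (adjusted p = 0.0527 to 0.165). Pbx3 introns did not pass in preGM (1.56 ± 0.65, adjusted p = 0.341). Pknox1 introns had 2.11 ± 0.87 in HSC (adjusted p = 0.256) and 4.83 (adjusted p = 0.0172) without WT HSC replicate 3. Pbx2, with 999 intron bases that overlap no exon, had at most 1 intron count in a library and was not tested.

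Other genes of the system were followed in lists chosen with earlier results of these data known. The first held 7 further TALE and PBX partner genes, of which 6 were tested. With MLL-ENL, 0 rose and 0 fell in HSC by edgeR, where 4.13% of all tested genes changed. The median log2 change was 0.16 beside 0.02 for all genes. At an unadjusted p under 0.05, 2 were higher (Meis3 and Pbxip1, named after their values were seen) and 0 lower, and DESeq2 and both limma fits each called 2 higher. Over all genes, DESeq2 called 882 of 15695 higher. The limma fits called 1025 of 15706 higher on log2(RPKM + 0.1) and 1419 of 15706 on log2(RPKM + 1). In preGM 0 rose and 0 fell by edgeR (median -0.14 beside 0.08), where 6.77% of all tested genes changed. There 0 had an unadjusted edgeR p under 0.05, and neither DESeq2 nor a limma fit called any.

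In WT, 2 of the 6 genes were lower in preGM than in HSC and 0 higher, a share near the 38.5% of all tested genes that differed in either direction. These were the TALE gene Meis2 (-4.98 ± 1.26) and Tgif2, a TALE repressor gene (-0.89 ± 0.25). The Meis2 call rested on levels of 0.821 ± 0.967 and 0.019 ± 0.017 CPM and was lost with both limma fits, and that of Tgif2 ended when replicate 3 of WT preGM was left out (adjusted p = 0.0608). With MLL-ENL, 3 of 6 were lower and 0 higher, where 41.5% of all tested genes differed. These were Meis2 (-5.84 ± 1.33), Meis3 (-4.66 ± 1.04) and Pbxip1, the gene of a PBX-binding inhibitor (-0.93 ± 0.24). From WT HSC to MLL-ENL preGM 1 of 6 fell (Meis2, -5.97 ± 1.34), where 33.4% of all tested genes differed, and from MLL-ENL HSC to WT preGM 4 of 6 fell (Meis2, Meis3, Tgif2 and Pbxip1), where 48.7% did. Both limma fits lost the Meis2 call in these comparisons too, and the last exon alone lost it from WT HSC to WT preGM (adjusted p = 0.0564) and to MLL-ENL preGM (adjusted p = 0.0513). Meis3 had 1.28 ± 0.310 CPM in MLL-ENL HSC and at most 0.075 as a mean elsewhere, and its difference from WT HSC just missed the threshold (3.87 ± 1.05, adjusted p = 0.0505).

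The HOX genes, whose proteins are the partners, were tested for 17 of 33. In HSC 2 rose and 0 fell by edgeR, where 4.13% of all tested genes changed, with a median of 1.20 beside 0.02 for all genes. DESeq2 called 3 higher and each limma fit 9. Of the calls over all genes in HSC, 501 of 648 were higher by edgeR and 882 of 1339 by DESeq2. With limma 1025 of 1167 were higher on log2(RPKM + 0.1) and 1419 of 1599 on log2(RPKM + 1). The medians of all genes in the limma fits were 0.22 and 0.13. The edgeR calls were Hoxb5 (2.09 ± 0.41, adjusted p = 0.00937) and Hoxa10 (1.20 ± 0.28, adjusted p = 0.0230). Hoxa10 kept its call in 19 of 25 alternatives, and lost it when 1 of the MLL-ENL HSC libraries, or the second or the third of WT HSC, was left out (adjusted p = 0.0584 to 0.0890). In preGM 6 rose and 0 fell (median 1.95 beside 0.08), where 6.77% of all tested genes changed. The rises were led by Hoxa10 (4.59 ± 0.35), Hoxa7 (2.68 ± 0.25), Hoxa9 (2.08 ± 0.22), Hoxa5 (1.95 ± 0.37) and Hoxb5 (3.51 ± 0.71). Hoxb5 had 0.426 CPM in MLL-ENL preGM and was lost with both limma fits. DESeq2 also called 6 higher in preGM and each limma fit 4, so the cell type with more HOX calls was preGM by edgeR and DESeq2 and HSC by limma. Calls over all genes ran the same way. In HSC and preGM, edgeR called 648 and 1063 genes and DESeq2 1339 and 1741. With limma they were 1167 and 785 on log2(RPKM + 0.1), and 1599 and 609 on log2(RPKM + 1). The preGM minus HSC difference of the responses was positive for 3 HOX genes and negative for 0 by edgeR (median 1.00 beside 0.07). These were Hoxa10, Hoxa7 and Hoxa9, where 3.13% of all tested genes were called. DESeq2 called 4 positive and 1 negative, limma on log2(RPKM + 0.1) 3 and 1, and limma on log2(RPKM + 1) 1 and 4, so the balance of directions depended on the scale. In the exons before the last exon, where HOX genes have few counts, the Hoxb5 and Hoxa10 calls were lost.

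Genes described as targets of HOXA9 or MEIS1 went both ways, with all 20 tested. In HSC 3 rose and 2 fell, where 4.13% of all tested genes changed, with a median of -0.06 beside 0.02 for all genes. Id2, an inhibitor of helix-loop-helix factors (1.65 ± 0.28), the cyclin gene Ccnd1 (1.11 ± 0.23) and the pseudokinase gene Trib2 (2.43 ± 0.58) rose, and the platelet chemokine gene Pf4 (-3.35 ± 0.56) and the receptor gene Flt3 (-1.72 ± 0.31) fell. Pf4 also belongs to the megakaryocyte and erythroid marker list, whose sum fell with it. The Ccnd1 call ended when the first library of WT HSC, or the second or the third of MLL-ENL HSC, was left out (adjusted p = 0.0568 to 0.0701). The Trib2 call ended for any library of MLL-ENL HSC, and for the second and the third of WT HSC (adjusted p = 0.0512 to 0.0904), and that of Flt3 with limma on log2(RPKM + 1) (adjusted p = 0.0503).

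In preGM 6 of the 20 rose and 2 fell (median 0.30 beside 0.08), where 6.77% of all tested genes changed. Among those with the smallest p, the progenitor antigen gene Cd34 (2.55 ± 0.29), Sox4 (1.58 ± 0.23), Mef2c (1.31 ± 0.24) and Erg (1.26 ± 0.24), 3 transcription factor genes, rose and Id2 fell (-2.24 ± 0.29). Id2 thus rose in HSC and fell in preGM, and its responses differed by -3.89 ± 0.40 (adjusted p = 5.30e-05). The difference between cell types was positive for 4 genes and negative for 2 (median 0.48 beside 0.07), where 3.13% of all tested genes were called. Erg was lost in the exons before the last exon (adjusted p = 0.225).

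**Figure D5:**
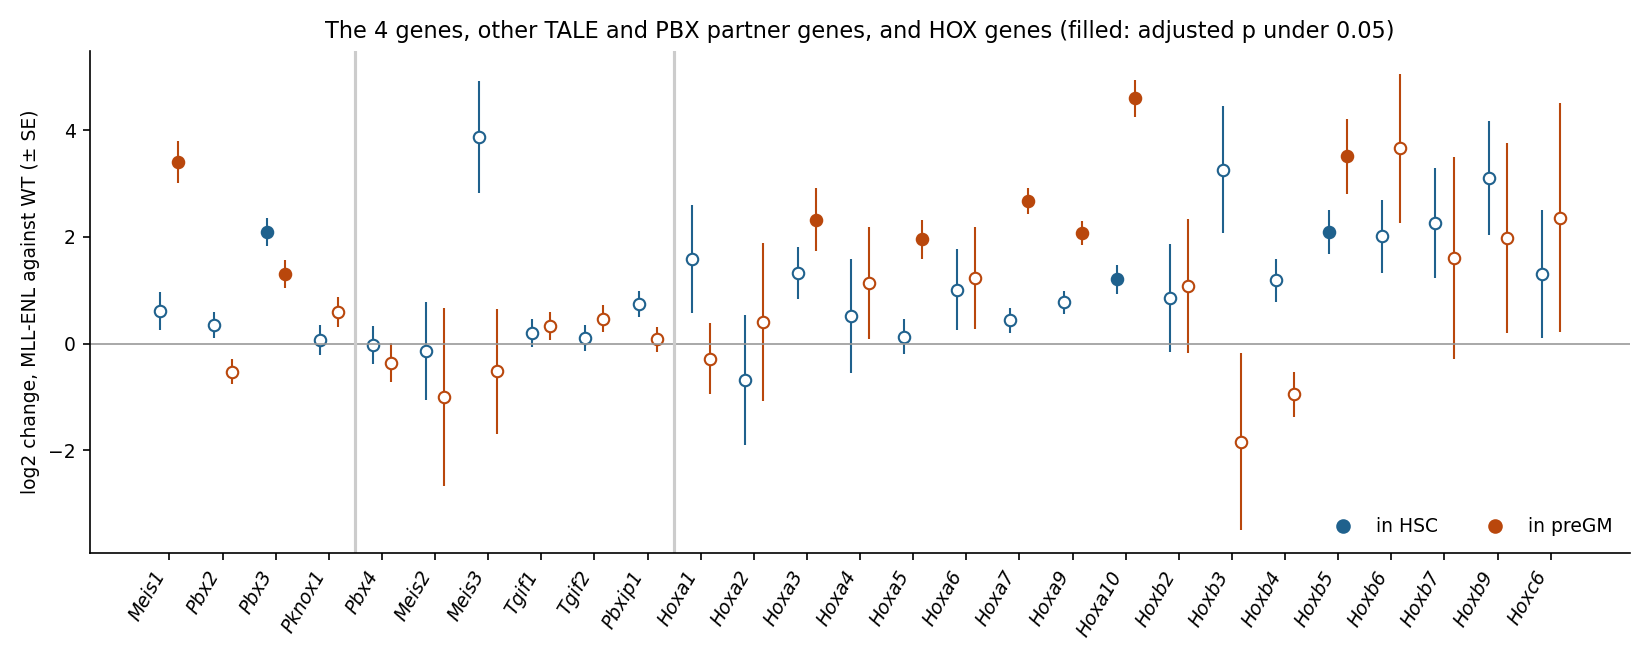
Log2 change with MLL-ENL in HSC and in preGM for the 4 genes, the 6 tested TALE and PBX partner genes and the 17 tested HOX genes. Points are edgeR estimates, bars are ± 1 SE and filled points have an adjusted p under 0.05. In preGM the filled points are Meis1, Pbx3 and 6 HOX genes, and the TALE and PBX partner genes beside the 4 are unfilled in both cell types.

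The genes most like each of the 4 were found by the root-mean-square difference of log2 CPM, each gene centred on its mean, over the 12 libraries. For Meis1 these were Cttn (0.22), Adgrl4 (0.33), Tfr2 (0.40), Afap1l1 (0.49) and Il27ra (0.49), where the median tested gene lay at 1.82. For Pbx3 they were Aqp1 (0.29), H2-Q6 (0.41), H2-Q7 (0.41), 1700023H06Rik (0.42) and Ak1 (0.45), with a median of 1.55, and reads of H2-Q6 and H2-Q7 can be assigned to the wrong copy. For Pbx2 they included Ddx6 (0.16), Slc50a1 (0.17), Gm26634 (0.18) and Wdtc1 (0.19), with a median of 0.83, and for Pknox1 Tbc1d22a (0.12), Rpap1 (0.13), Senp1 (0.14), Gfm2 (0.15) and Thumpd1 (0.16), with a median of 0.75. Within the set, Pbx2 and Pknox1 lay closest at 0.64, then Meis1 and Pbx3 at 0.97, while Meis1 and Pbx2 lay at 1.70.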

How the data were processed

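RNA was sequenced in 12 libraries, 3 in each of 4 groups taken from the sample titles. Per the labels, RNA came from RNeasy micro columns and libraries from the SMARTer universal low input kit. Each deposited file lists exons, introns and transcripts with a raw read count and an RPKM value computed by the authors, per the file headers. The submitters' processing notes name HTSeq, edgeR, Bowtie2 2.1.0 and TopHat2 2.0.8 without stated roles. For the authors' genome build, "not given in the sources used here" applies. Of 93615 deposited transcripts, 89664 (95.8%) matched GENCODE M21 on GRCm38 by identifier, and 85.9% of these had identical exons. Coordinates and sequences are those of GRCm38, counted from 1.

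Gene counts were sums over exons of a gene that do not overlap each other, chosen to cover as many bases as possible (99.4% of exon bases). A further 2890 transcripts were assigned by exon overlap and 1061 were left out. Genes passing filterByExpr (minimum count 10, minimum total 15; 15706 of 37574) were fitted in R 4.3.3 with edgeR 4.0.16 (quasi-likelihood test), with TMM scaling and all 12 libraries (common biological coefficient of variation 0.321). The 7 comparisons are two-sided, with Benjamini-Hochberg adjustment over all tested genes. With 3 libraries against 3, an exact permutation test cannot go below p = 0.1. Introns overlapping no exon were fitted alike. Exon usage was tested with edgeR's diffSpliceDGE over exons of at least 10 counts, and limma 3.58.1 and DESeq2 1.42.0 were alternatives. The edgeR gene test and the exon usage test were first tried on simulated data, for MLL-ENL against WT in HSC. The other fits were not. The limma fits used log2(RPKM + 0.1) and log2(RPKM + 1), with RPKM computed here from the gene counts. The deposited RPKM served to recover the authors' library sizes.

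All 4 genes are named in every comparison. Of each list, the members past the threshold are named, at most 5 per comparison by smallest p, for the HOX and target lists in the first 3 comparisons, and the 5 genes most like each of the 4 by log2 CPM with a prior count of 2. Of the genes this rule takes, 2 are not reported here. The 4 genes and the lists were chosen with earlier results of these data known. The main fit did not pair libraries by replicate number. Correlations of same-numbered deviations between groups ran from -0.104 to 0.100. Differently numbered libraries were not compared, so these values cannot show whether same-numbered libraries share an origin. Other settings tried were DESeq2's size factors or library size alone, no filter, the longest transcript, only the groups compared, a replicate block, libraries left out, and, chosen after seeing the data, exons shared with other genes left out, the last exon alone and the exons before it. No protein sequences were used here.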

Additional observations from a re-analysis of the deposited data

Results flagged for a closer look

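The response to MLL-ENL differed between the cell types for several genes, tested as the preGM change minus the HSC change in the edgeR fit. For Meis1 the difference was 2.80 on gene counts and 2.44 on intron counts, the latter near the threshold. Among HOX genes it was 3.39 for Hoxa10, 2.24 for Hoxa7 and 1.302 for Hoxa9, the last of which kept its call in 12 of 24 alternatives. The Hoxa10 difference was 0.41 (adjusted p = 0.451) with limma on log2(RPKM + 1), and on the exons before the last exon it had an adjusted p of 0.556, where Hoxa7 had 0.0554. The Hoxa9 call was lost with library size alone, both limma fits, a replicate block and the exons before the last exon (adjusted p = 0.0512 to 0.630). It was also lost without WT HSC replicate 1 or 2, any MLL-ENL HSC library, or WT preGM replicate 1 or 3 (adjusted p = 0.0533 to 0.0877). Among the genes described as HOXA9 or MEIS1 targets, the difference was positive for Cd34 (3.20), Flt3 (3.18) and Sox4 (1.98) and negative for Id2 (-3.89) and Trib2 (-3.61). Id2 rose in HSC (1.65) and fell in preGM (-2.24), and Flt3 fell in HSC (-1.72) and rose in preGM (1.46). Trib2 rose in HSC (2.43) and had -1.18 in preGM (adjusted p = 0.216). The Trib2 difference was lost without MLL-ENL HSC replicate 3 (adjusted p = 0.0580) or MLL-ENL preGM replicate 3 (adjusted p = 0.0520).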

How the results depend on the processing

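The cause of the shifts given here was not tested, except that the longest transcript and the exons before the last exon hold fewer counts. The number of the 4 genes called in HSC, 1, was 0 with the longest transcript, 2 with only the groups compared, 2 without both libraries that stood apart, and 1 to 2 when 1 library was left out. Over all genes in HSC, 2507 of 14185 were called with only the groups compared and 3369 of 15811 without both libraries, against 648 of 15706. In preGM, 2 became 1 with limma on log2(RPKM + 1), the longest transcript or the exons before the last. In WT preGM against HSC, 2 became 4 with library size alone and both limma fits, and 1 with the longest transcript or the exons before the last. The median of all genes there was -0.61 with limma on log2(RPKM + 0.1) and -0.36 on log2(RPKM + 1). In MLL-ENL preGM against WT HSC, 2 became 1 without a filter, with the longest transcript, only the groups compared or the exons before the last, 3 without both libraries that stood apart, and 0 to 2 without 1 library. In preGM against HSC with MLL-ENL, 3 ranged from 2 to 3, and in WT preGM against MLL-ENL HSC, 3 ranged from 2 to 4. For introns, the call of the difference between cell types became 0 with library size alone and without both libraries, and 0 to 1 without 1 library. Without 1 library, intron calls ranged from 1 to 2 in HSC and in WT preGM against HSC, with 2 without WT HSC replicate 3.

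With a replicate block, 1 of 4 genes was called in MLL-ENL preGM against WT HSC in place of 2, because Pbx3 moved to adjusted p = 0.0677, and Pbx2 in WT preGM against MLL-ENL HSC moved to 0.0576. The block ended no other call of the 4 genes. A fit of only the groups compared gives no value for the difference between cell types.

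Directions turned mainly for Pknox1, which never passed where it turned. In MLL-ENL preGM against MLL-ENL HSC it was -0.34 with library size alone, -0.49 and -0.37 with limma, -0.29 without both libraries that stood apart, -0.066 on the last exon, and -0.29 to 0.38 without 1 library (lowest without MLL-ENL preGM replicate 1). Against WT HSC it was -0.080, -0.24, -0.16 and -0.22 under the first 4 of these, and -0.22 to 0.45 without 1 library. In HSC it was -0.15 before the last exon and -0.018 to 0.18 without 1 library, below 0 when the first library of WT HSC or the second of MLL-ENL HSC was left out. Before the last exon, WT preGM was 0.049 against WT HSC and 0.20 against MLL-ENL HSC. Its intron value in WT preGM against HSC was -0.041 with library size alone. In MLL-ENL preGM against WT HSC, Meis1 was 1.06 and Pbx3 0.70 with the longest transcript, and Pbx3 0.93 before the last exon.

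Scaling by library size alone moved the median of all genes to -0.73 in WT preGM against HSC, 0.21 for MLL-ENL in HSC and 0.41 in preGM, and the genes higher among those called from 2889 of 6042 to 1190 of 7339 in the first. All genes called ranged over the settings from 229 to 3369 in HSC, 326 to 1741 in preGM and 145 to 1927 for the difference, against 648, 1063 and 492. The last exon's share limits all values: most Pbx3 counts lie there, and the last exon of Pbx3 had 46, 42 and 61 counts in WT preGM.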
